A study of Mus musculus with 14 samples.

Results

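A set of 1422 autosomal 1-kb tiles was chosen by measured methylation levels, as tiles that were low in mouse tail fibroblasts and higher after 3 weeks of reprogramming in both cultures of the study. A tile is a fixed window of 1000 bases, and its methylation level is the percentage of methylated reads over all cytosine positions listed in it. A tile was kept where the mean level of the 2 fibroblast libraries was at most 30% and where the level of both 3-week cultures lay at least 25 points above that mean. These gained tiles made up 1.29% of the 110555 tiles with at least 3 listed positions in every library, and 4.29% of the 33152 tiles with a fibroblast mean of at most 30%, called low tiles here. Since the fibroblast and 3-week levels chose the tiles, those levels are given as a description, and the 6 clone libraries, which the choice did not use, carry the comparisons.

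The samples were tail fibroblasts of mice labelled wildtype or AID-null, untreated or reprogrammed with the factors Oct4, Sox2, Klf4 and cMyc. Methylation was read by reduced representation bisulfite sequencing (RRBS), which samples cytosines near restriction sites. Each label had 1 library of untreated fibroblasts, 1 of the whole culture at 3 weeks, and 3 of clones that were picked at 2 weeks and measured after 3 weeks of reprogramming. RNA was sequenced from the fibroblasts and the 3-week cultures only, in 1 library each. The labels give no animal or culture of origin for the clones, so spreads and p-values refer to these 6 clones.

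Methyl groups on cytosines of CpG dinucleotides are placed by the enzymes Dnmt3a and Dnmt3b, helped by Dnmt3l, and are copied at replication by Dnmt1 with Uhrf1, while Tet enzymes oxidise them towards removal. In differentiated cells most CpGs outside CpG islands are methylated, and short unmethylated stretches away from promoters often mark enhancers bound by the transcription factors of that cell type. When fibroblasts are turned into pluripotent cells, such stretches can become methylated.

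Wildtype and AID-null are used below as the names on the libraries. RNA levels are in FPKM (fragments per kilobase, scaled to library depth). The labels differed in sex-linked RNA: Eif2s3y, on the Y chromosome, had no signal in either wildtype library and reached 184 and 274 FPKM in those labelled AID-null. Fibroblast markers were abundant before reprogramming and pluripotency markers after it. Over 7 fibroblast markers the summed level was 66217 FPKM in wildtype and 76908 FPKM in AID-null fibroblasts, and 2341 and 10065 FPKM at 3 weeks. In fibroblasts these sums came mostly from Col1a1 and Col1a2. All 7 markers were lower at 3 weeks under the wildtype label. Under the AID-null label Pdgfra was higher, at 283 after 203 FPKM. Dcn went from 3472 to 2992 FPKM there and Thy1 from 1861 to 1433 FPKM. Over 6 pluripotency markers the summed level was 6.85 and 9.0 FPKM in fibroblasts, and 7924 and 6694 FPKM at 3 weeks. Of the methylation enzymes, Dnmt3b had 3.2 FPKM before and 389 FPKM after reprogramming in the wildtype pair of libraries, beside 4.78 and 193 FPKM in the other pair. Of 8 genes that place, copy or oxidise methyl groups, or help to, 7 were at least 2-fold higher at 3 weeks under the wildtype label. Under the AID-null label 6 were, and Tet3 was at least 2-fold lower. Tet1 and Tet2, which oxidise, were among the higher ones under both labels. Of all genes whose start was placed, as described below, 22.6% and 16.8% were at least 2-fold higher. Per RRBS library, the reads summed over listed positions numbered from 222945430 to 296572452.

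The gained tiles rarely reached a promoter, and the few promoters they touched show what was read. Promoter sequences from RefSeq (GRCm38.p6) were matched to the deposited mm9 positions by the spacing of their CpGs, which placed 11272 promoter windows of 9898 genes. Of these windows, 4 overlapped a gained tile. Below are the 250 bases upstream of these 4 starts, 5′ to 3′ on the strand of the gene, with CpGs listed inside a gained tile in capitals. They lie on mm9 at chr1:36330271-36330520 on the reverse strand for Neurl3, chr8:125709885-125710134 on the forward strand for Dpep1, chr6:115469520-115469769 on the reverse strand for Gm36301 and chr9:74695994-74696243 on the forward strand for Gm16551.
Neurl3: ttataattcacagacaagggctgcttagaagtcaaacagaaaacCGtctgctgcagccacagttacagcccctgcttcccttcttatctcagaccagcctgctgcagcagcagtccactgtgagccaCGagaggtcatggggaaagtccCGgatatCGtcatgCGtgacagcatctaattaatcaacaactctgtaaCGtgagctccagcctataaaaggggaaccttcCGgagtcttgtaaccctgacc
Dpep1: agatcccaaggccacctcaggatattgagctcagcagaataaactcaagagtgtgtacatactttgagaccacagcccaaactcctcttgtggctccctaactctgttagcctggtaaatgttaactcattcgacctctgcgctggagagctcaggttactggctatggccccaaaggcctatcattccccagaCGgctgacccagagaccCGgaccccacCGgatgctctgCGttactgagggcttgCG
Gm36301: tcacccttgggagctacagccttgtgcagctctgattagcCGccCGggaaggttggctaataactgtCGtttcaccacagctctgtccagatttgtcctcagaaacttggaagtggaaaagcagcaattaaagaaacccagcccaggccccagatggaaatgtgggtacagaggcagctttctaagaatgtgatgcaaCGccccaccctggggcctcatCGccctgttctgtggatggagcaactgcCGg
Gm16551: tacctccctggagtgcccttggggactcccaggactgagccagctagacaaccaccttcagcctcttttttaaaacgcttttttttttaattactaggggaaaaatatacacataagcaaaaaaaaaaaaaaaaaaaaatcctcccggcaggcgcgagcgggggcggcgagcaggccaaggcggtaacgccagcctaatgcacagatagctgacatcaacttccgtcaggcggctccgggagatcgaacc

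In the Neurl3 sequence, 5 of the capital CpGs, between bases 150 and 230 counted from the 5′ end, were listed in all 10 libraries. They ranged from 2.37% to 16.0% in fibroblasts, from 22.5% to 44.4% in the 3-week cultures, from 33.0% to 78.7% in wildtype clones and from 6.21% to 77.4% in AID-null clones. The 3 Dpep1 CpGs listed in all libraries, next to the start, ranged from 4.9% to 48.6% in fibroblasts and from 39.4% to 53.6% in the cultures. In clones they ranged from 54.3% to 81.5% under the wildtype label and from 64.1% to 95.1% under the AID-null label. The 3 such CpGs of Gm36301 had a median of 2.49% in fibroblasts and of 48.1% in the cultures, and ranged from 0% to 77.8% in wildtype clones and from 32.9% to 92.7% in AID-null clones. Its capital CpGs at bases 199 and 220 were not listed in wildtype fibroblasts. In AID-null fibroblasts they were already at 91.7% and 100%. In the cultures they stood lower, at 49.0% and 59.2% (wildtype) and 41.9% and 48.8% (AID-null). Gm16551 is the contrast: its start is next to a gained tile, but the 9 CpGs of its promoter listed in all libraries lie just outside that tile and had medians of 2.68% in fibroblasts and 2.14% in the cultures, and of 0% in the clones of both labels. The highest clone value among them was 8.22%. Its CpG at base 165, not listed in every library, had 84.6% in wildtype fibroblasts and 3.82% and 4.61% in the cultures. In cultures and clones a methylated tile and an almost unmethylated promoter thus lay side by side.

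In fibroblasts the gained tiles had median levels of 11.9% (wildtype) and 14.0% (AID-null), and their mean over both had a median of 13.4%. At 3 weeks the medians were 48.6% and 47.5%. These levels follow from the choice, as does the share of tiles past each bound: at least 25 points above fibroblasts were 2.01% of all tiles in the wildtype culture and 2.12% in the AID-null culture. The cultures were within 10 points of each other at 1198 of the 1422 gained tiles, and the wildtype culture was the higher at 765. Both had to pass the same bound, which left out 581 and 454 low tiles where only the wildtype or only the AID-null culture gained. Their closeness is thus in part set by the choice, and the share over all tiles was not counted. Over all tiles tested the median moved the other way, from 70.5% in fibroblasts to 49.0% (wildtype) and 57.5% (AID-null) in the cultures.

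At the bounds, members and excluded tiles were close. Just inside the fibroblast bound, chr15:93022001-93023000 had a fibroblast mean of 29.97%, and just outside it chr8:12214001-12215000 had 30.13%. The 3 wildtype and 3 AID-null clones averaged 79.2% and 81.4% at the first and 72.0% and 76.6% at the other. Just inside the wildtype gain bound, chr2:158083001-158084000 had a fibroblast mean of 18.4% and 43.4% in the wildtype culture, and just outside it chr12:71781001-71782000 had 29.0% and 54.0%. Just inside the AID-null bound, chr1:73875001-73876000 went from a fibroblast mean of 17.1% to 42.1%, and just outside it chr5:107254001-107255000 went from 0.924% to 25.9%.

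The clones carried the gain, at a level above that of the cultures. Wildtype clones 1, 2 and 3 had medians of 66.0%, 67.9% and 68.4% over the gained tiles. For AID-null clones 1, 2 and 3 the medians were 73.1%, 67.7% and 81.2%. Every clone median was thus above both culture medians, and AID-null clone 3 was the highest. All 3 wildtype clones were at least 25 points above the fibroblast mean at 1350 of the 1422 tiles (94.9%), against 9.84% of low tiles in all. All 3 AID-null clones were so at 1339 tiles (94.2%), against 8.87%, and all 6 clones at 1286 (90.4%), against 7.59%. The fibroblast mean enters both the choice and these counts, so they describe how often the clones carried the gain and are given no p. Single clones missed the bound at 35, 32 and 13 tiles under the wildtype label and at 46, 69 and 3 under the AID-null label. In all 6 clones the level was at least 50% at 1011 tiles (71.1%).

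**Figure D1:**
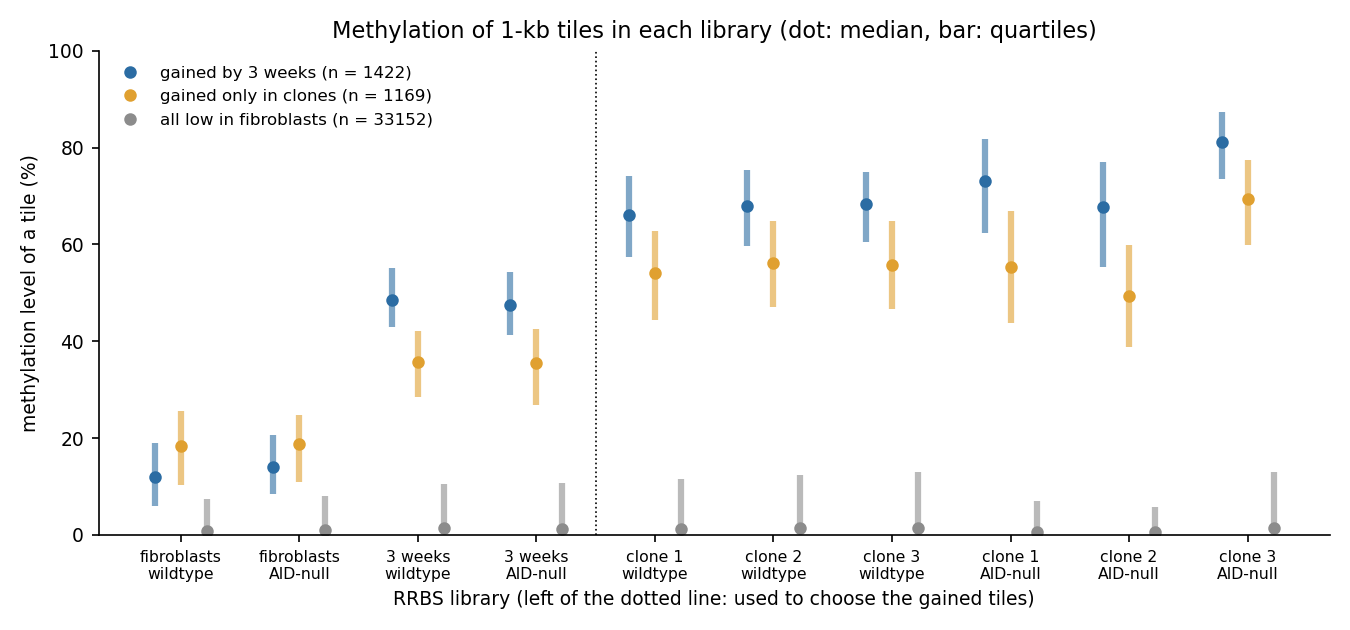
Methylation level (%) of tiles in each of the 10 RRBS libraries, for the 1422 gained tiles, the 1169 tiles that gained only in clones and all 33152 low tiles; dots are medians and bars run from the lower to the upper quartile. Gained tiles rise from medians of 11.9% and 14.0% to 48.6% and 47.5% in the cultures and to between 66.0% and 81.2% in clones, while the medians of all low tiles stay under 2%.

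Within a label, the clones averaged above the culture nearly throughout. The mean of the wildtype clones exceeded the wildtype culture at 1366 tiles and every single wildtype clone did so at 1219. For the AID-null label the counts were 1375 and 1241. As a median over tiles, the rise seen in the culture was 65.6% of the rise seen in the clones under the wildtype label and 57.9% under the AID-null label. Cultures held a summed 10065 FPKM of fibroblast markers under the AID-null and 2341 FPKM under the wildtype label, though single markers changed unequally. The part of remaining fibroblasts in the culture levels was not tested. A further 1169 low tiles gained at least 25 points in the clone means of both labels but in neither culture. Those ended lower, with medians of 55.5% for the wildtype and 58.0% for the AID-null clone means, against 67.8% and 73.9% for the gained tiles.

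Most listed positions of gained tiles were higher than in fibroblasts, and the medians of both DNA strands were close. The culture reads also chose the tiles, so the culture shares below are a description. Of 6898 positions listed in all 10 libraries, in 1381 gained tiles with at least 3 of them, 92.1% were at least 10 points above their own fibroblast mean in the wildtype culture and 92.2% in the AID-null culture. In clones this share ran from 92.9% in wildtype clone 2 to 96.1% in AID-null clone 3. Every listed position of the tile was up in 991 of the 1381 tiles in the wildtype culture. In clones this number ran from 1009 in wildtype clone 1 to 1154 in AID-null clone 3. At 903 CpGs read on both strands, forward and reverse medians were 47.6% and 46.0% in the wildtype culture and 83.2% and 82.1% in AID-null clone 3. At single CpGs the strands often differed: they were within 10 points at 49.1% of these CpGs in the wildtype culture. In clones that share ran from 38.3% in wildtype clone 2 to 54.3% in AID-null clone 3.

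Gained tiles were poor in listed positions. The library with the fewest had a median of 4 positions in a gained tile, against 5 in all tiles tested and 15 in low tiles. Other low tiles that gained were alike, with 5 where only clones gained and 4 where only the wildtype or only the AID-null culture did. Of the gained tiles 842 (59.2%) had 3 or 4 positions and 3 had 20 or more, whereas 42.4% of low tiles had 20 or more. Read the other way, 14.3% of low tiles with 3 or 4 positions were gained tiles, 6.99% of those with 5 to 9, 1.58% of those with 10 to 19 and 0.0213% of those with 20 or more. Clone levels varied less between these classes: the median wildtype clone level was 68.0% at 3 or 4 positions and 67.0% at 10 to 19. The reads summed over the positions of a gained tile had a median of 602 per library, with a lowest value of 30. Over all gained tiles and libraries the 95% Wilson interval of a level had a median half-width of 3.35 points and at most 16.8 points. These intervals cover counting error only. A read that spans several positions is counted at each of them, so the intervals can be too narrow even for that.

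**Figure D2:**
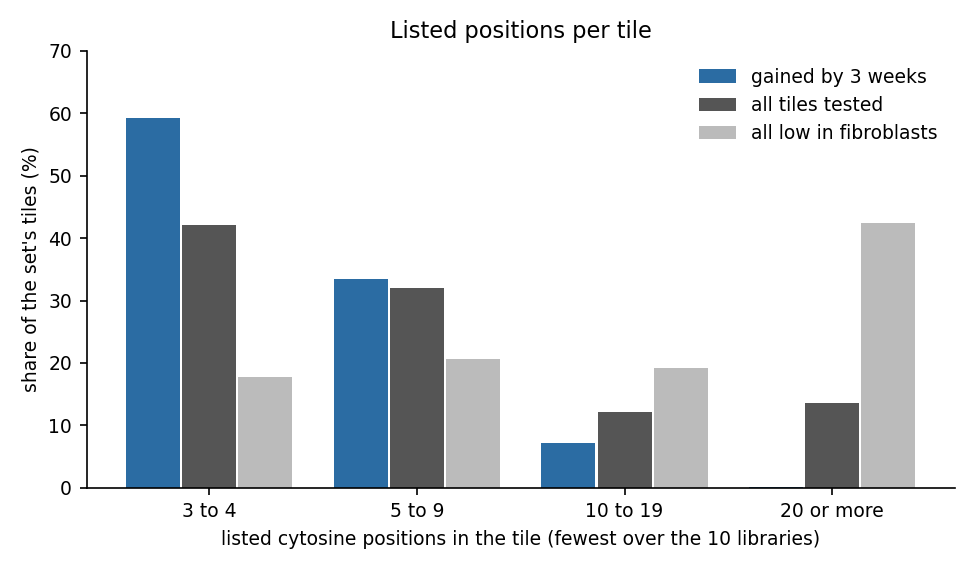
Share (%) of tiles by the fewest listed cytosine positions over the 10 libraries, for gained tiles, all tiles tested and all low tiles; the bars of each set add up to 100%. The gained tiles sit in the classes with few positions, 59.2% of them with 3 or 4, while 42.4% of low tiles have 20 or more.

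How many low tiles were gained tiles differed with the starting level. Among low tiles with a fibroblast mean under 5%, 180 of 22980 (0.783%) were gained tiles, against 309 of 2846 (10.9%) from 5% to 10%, 598 of 3936 (15.2%) from 10% to 20% and 335 of 3390 (9.88%) from 20% to 30%. Over these 4 classes the median wildtype clone level was 61.0%, 63.4%, 67.8% and 73.0%, and the AID-null clone level 63.9%, 69.5%, 74.2% and 79.8%. The tiles that started lowest also had the lowest culture medians, at 39.6% (wildtype) and 37.9% (AID-null).

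Around gained tiles, fibroblast methylation was higher within a few kb. In fibroblasts, tiles that were not themselves gained had a median of 47.9% at 1 kb from a gained tile, 59.0% at 2 kb and 64.7% at 3 kb, against 13.4% in the gained tiles. Of the tiles 1 kb away, 36.6% were under 30%. At 5 kb, 29.4% were under 30%. Around tiles that gained only in clones, with that set left out, the fibroblast medians were 28.8% at 1 kb and 48.1% at 5 kb. Of those neighbours at 5 kb, 41.4% were under 30%. Around low tiles that stayed low in cultures and clones, the medians were 56.1% at 1 kb and 77.7% at 5 kb, with 8.66% under 30% at 5 kb. Their neighbours leave out all tiles that stayed low, which are 83.5% of low tiles. Their values are therefore not comparable with those around gained tiles. In the wildtype culture the gained tiles, at 48.6%, stood level with the tiles 1 kb away, at 49.2%, and 5 kb away, at 49.3%. At 5 kb the surrounding had been at 65.6% in fibroblasts, so it stood lower in the culture while the gained tiles stood higher. In the AID-null culture the gained tiles, at 47.5%, were still under the 54.7% at 1 kb and 58.8% at 5 kb. In clones the order was turned, with 67.8% in gained tiles against 60.7% at 1 kb and 57.3% at 5 kb under the wildtype label, and 73.9% against 66.3% and 59.3% under the AID-null label. The neighbours leave out other gained tiles, 37 pairs of which were adjacent, so the fibroblast and culture levels enter the choice of neighbours too, and the bound of 30% on fibroblasts sets the dip at the centre.

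**Figure D3:**
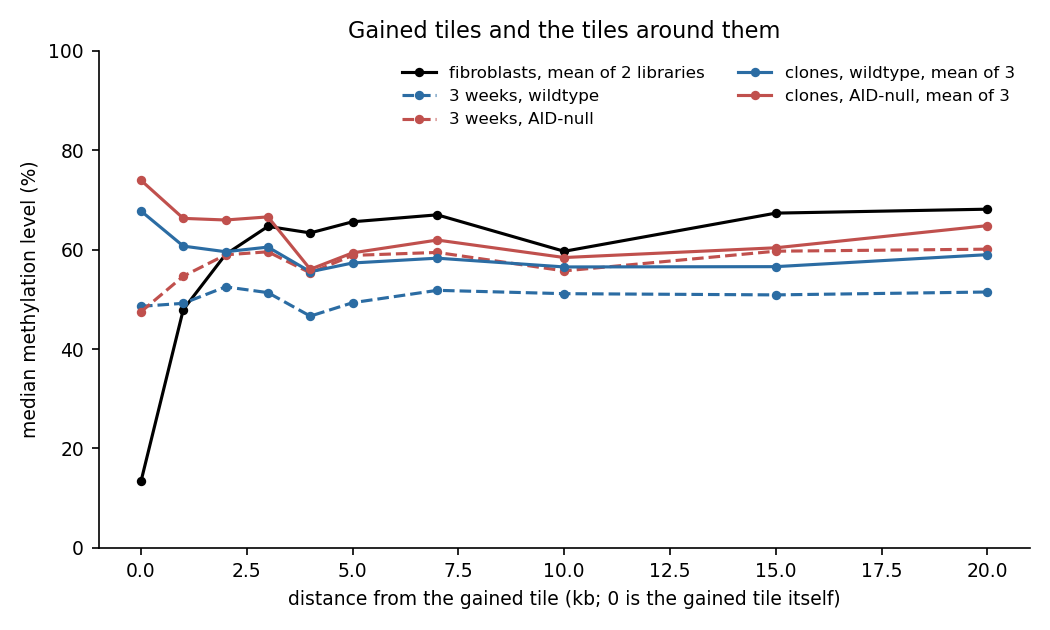
Median methylation level (%) of the gained tiles (distance 0) and of tiles that were not gained, by distance in kb, for fibroblasts, 3-week cultures and clones of both labels. The fibroblast line climbs from 13.4% to 64.7% within 3 kb, and both clone lines are highest at the gained tile itself, at 67.8% and 73.9%.

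They also lay far from gene starts, as did other low tiles that gained. From the centre of the tile, the median distance to the nearest placed start was 86.9 kb for the 1373 gained tiles on chromosomes with placed starts, 42.0 kb for all tiles and 5.25 kb for low tiles. Low tiles that gained only in clones had a median of 71.6 kb, and those that gained only in the wildtype or only in the AID-null culture had 69.5 kb each. With its centre within 1 kb of a placed start were 9 gained tiles (0.655%), against 12.8% of all tiles and 40.3% of low tiles. In those other 3 sets the share was 2.29%, 2.13% and 0.690%. Starts without a dense, listed CpG stretch could not be placed, so true distances can be shorter. Of the 486 gained tiles within 50 kb of a placed start, 302 (62.1%) lay downstream of it, against 58.4% of all such tiles.

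Most gained tiles stood alone: 1246 had no other gained tile within 10 kb, and 176 formed 84 runs, of which 7 had at least 3 members. The longest run had 4 tiles in 11 kb at chr11:94806001-94817000, between the placed starts of Xylt2, 267.7 kb from the centre of the first tile, and Ppp1r9b, 36.0 kb from the centre of the last. Distances of the tiles named here and in the next paragraphs are likewise from the tile's centre, unless a side of the start is given. RefSeq orders 10 protein-coding genes between them, among them Col1a1, the main chain of collagen I, whose own start was not placed. The mean over the 4 tiles was 16.1% and 18.0% in wildtype and AID-null fibroblasts and 51.0% and 54.5% at 3 weeks. It was 64.8%, 67.2% and 77.0% in the wildtype clones and 79.7%, 76.1% and 85.7% in the AID-null clones, so the clone ranges overlapped slightly. Col1a1 RNA was listed at 26383 and 30837 FPKM in wildtype and AID-null fibroblasts and at 159 and 1143 FPKM at 3 weeks.

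A run of 3 adjacent tiles at chr7:25716001-25719000, between the placed starts of Arhgef1 and Erfl, was denser, with 16, 4 and 17 listed positions in the library with the fewest. Its mean was 1.957% and 1.65% in the fibroblasts, 33.6% and 31.3% in the cultures, 46.8%, 42.5% and 44.8% in wildtype clones and 45.8%, 41.0% and 53.4% in AID-null clones. Clone ranges overlapped. The third tile of this run ended at 33.2% ± 3.45 (SD, n = 3) in wildtype and 24.4% ± 9.11 in AID-null clones, near its culture levels of 33.3% and 26.2%. The 3 tiles of chr7:138112001-138122000 lay 32.8 kb or more from the start of Htra1, a secreted serine protease. They averaged 14.1% and 12.6% in fibroblasts and 55.5% and 52.8% in the cultures, and from 74.1% to 89.5% over the 6 clones. The run of 3 at chr9:74694001-74704000 frames the unmethylated Gm16551 promoter shown above and comes within 6.2 kb of the start of Onecut1, a homeobox factor. It averaged 6.40% and 6.20% in fibroblasts, 41.1% and 33.7% in the cultures and between 49.1% and 67.2% in clones.

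The gained tiles that ended highest were almost fully methylated in every clone. At chr8:63764001-63765000, between the placed starts of Clcn3 and Palld, the level was 17.7% and 10.5% in wildtype and AID-null fibroblasts and 66.0% and 61.5% at 3 weeks. It was 91.0%, 90.5% and 91.9% in the wildtype clones and 95.3%, 93.5% and 96.9% in the AID-null clones. The clone groups did not overlap, and differed by 4.06 points. At chr15:93465001-93466000, 39.2 kb from the start of Prickle1, a planar polarity gene, fibroblasts had 7.90% and 2.63% and clones between 86.0% and 100%. At chr7:122968001-122969000, between the starts of Insc and Sox6os with Sox6 ordered in between, fibroblasts had 6.45% and 14.1% and clones between 84.1% and 100%.

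At the other end, some tiles gained in culture and went little further. The tile chr5:141123001-141124000, 0.985 kb downstream of the start of Ttyh3, was at 8.7% and 14.0% in fibroblasts and 46.3% and 38.7% in the cultures. Its clones had 35.4%, 35.9% and 43.3% under the wildtype and 35.3%, 34.7% and 39.5% under the AID-null label, all under the wildtype culture. At chr15:78627001-78628000, 6.0 kb from the start of Card10, both cultures had 35.6%. The wildtype clones had 30.01%, 39.5% and 41.1% and the AID-null clones 9.12%, 7.85% and 23.6%, so all 3 AID-null clones were below the culture.

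Between the labels, AID-null clones were more often the higher. The labels also differed in the sex-linked RNA of fibroblasts and cultures, so label and sex cannot be told apart here. The mean of the AID-null clones exceeded that of the wildtype clones at 1061 of 1422 tiles. The median difference was 5.53 points, against 1.11 points over all tiles tested. In low tiles that gained only in the AID-null culture it was 4.58 points. It was 2.53 points in those that gained only in clones and 0.94 points in those that gained only in the wildtype culture. All 3 AID-null clones lay above all 3 wildtype clones at 283 tiles (19.9%), against 15.3% of all tiles. They lay below at 16 tiles (1.13%), against 5.97%. The median difference was smaller without AID-null clone 3, the highest of the 6 clones at 869 gained tiles (61.1%) and at 50.3% of all tiles tested. Without that clone it was 2.36 points, against -0.08 points over all tiles, and the AID-null mean was the higher at 838 gained tiles. For tiles that gained only in the AID-null culture, only in clones and only in the wildtype culture it was then 0.52, -2.23 and -4.02 points. AID-null clones 1 and 2 lay above all wildtype clones at 301 tiles (21.2%), against 16.5% of all tiles. They lay below at 192 (13.5%), against 24.4%. The median SD over 3 clones was 6.2 points for wildtype and 8.4 points for AID-null.

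No gained tile passed the test between the labels. A quasi-binomial model of methylated and unmethylated reads, with dispersions moderated by limma over all 110555 tiles, called 0 gained tiles at an adjusted p under 0.05 and 25 points, and 4 tiles (0.00362%) in all. The smallest adjusted p of a gained tile was 0.167. At an unadjusted p under 0.05 stood 186 gained tiles (13.1%), 167 of them higher in AID-null clones, against 15.4% of all tiles, and limma on log2 ratios called 0 with 150 at that level. Without AID-null clone 3 the model called 16 gained tiles, 5 higher and 11 lower under the AID-null label, and 1.77% of all tiles, so that clone decides this count.

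**Figure D4:**
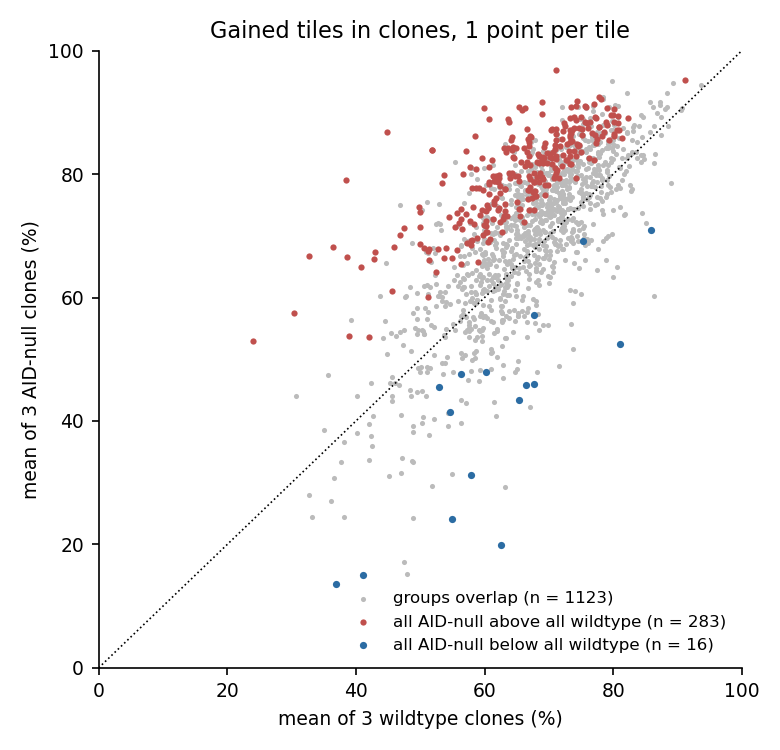
Mean methylation level (%) of the 3 AID-null clones against that of the 3 wildtype clones, 1 point for each of the 1422 gained tiles, with the line of equal levels dotted. Points lie above the line at 1061 tiles; red marks the 283 tiles where all AID-null clones exceed all wildtype clones, blue the 16 with the opposite order.

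The tiles with the largest differences among those without overlap show the spread. At chr13:56406001-56407000, 8.6 kb from the start of Cxcl14, a chemokine gene, wildtype clones had 22.9%, 47.8% and 63.6% and AID-null clones 92.3%, 100% and 68.4%. The wildtype values alone spanned over 40 points (SD 20.5, n = 3), and the mean difference was 42.1 points. At chr8:91936001-91937000, between Sall1 and Tox3 with no coding gene ordered between them, the wildtype clones had 49.3%, 48.0% and 58.1% and the AID-null clones 84.6%, 78.0% and 89.0%. Here both groups were tight, at 51.8% ± 5.47 and 83.9% ± 5.57 (SD, n = 3 each), while the cultures were at 53.6% and 49.0%. In the opposite direction, chr3:95966001-95967000, 18.6 kb from the start of Sv2a, had 59.6%, 71.6% and 56.6% in wildtype and 14.8%, 13.1% and 31.9% in AID-null clones. Its cultures were close, at 36.6% and 36.0%, and none of these 3 tiles passed the test.

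Few placed genes had a gained tile at the start, and those measured were more often lower at 3 weeks. Counted from the start to the nearest edge of a tile, 15 placed genes lay within 1 kb of a gained tile, 8 of which reached 1 FPKM in a fibroblast or 3-week library. At 3 weeks 4 of the 8 were at least 2-fold lower under the wildtype label, against 14.9% of all placed genes, and 5 of 8 under the AID-null label, against 15.4%. D430019H16Rik, listed at 0 in both fibroblast libraries, was at least 2-fold higher under both labels, 1 of 8, against 22.6% and 16.8%. Counting all genes in the RNA tables, also those below 1 FPKM, the medians within 1 kb were 0.00 and -0.13 in place of -1.01 and -1.51. With 1 RNA library per group these differences have no test, and they are differences of log2(FPKM + 1), which understates changes of low genes. In bulk RNA, fewer fibroblasts and less RNA per cell cannot be told apart.

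Dpep1, a membrane dipeptidase, had gained tiles on both sides of its start. The tile chr8:125710001-125711000 was at 14.6% and 13.0% in fibroblasts, 47.1% and 41.6% in the cultures, 62.4%, 69.7% and 72.1% in wildtype clones and 80.2%, 72.9% and 76.3% in AID-null clones. Dpep1 RNA was listed at 119 and 139 FPKM in wildtype and AID-null fibroblasts and at 2.67 and 39.3 FPKM at 3 weeks, differences of -5.03 and -1.80. Neurl3, a ubiquitin ligase, was listed at 1.82 and 8.79 FPKM in fibroblasts and at 0 and 1.0 FPKM at 3 weeks. Its tile went from 6.84% and 7.08% to 33.8% and 33.5%, with 41.1%, 57.8% and 55.4% in wildtype and 27.5%, 22.7% and 63.1% in AID-null clones, which overlap. Id3, an inhibitor of helix-loop-helix factors, had a gained tile 0.737 kb upstream of its start. That tile was at 2.46% and 14.0% in fibroblasts and 52.8% and 46.5% in the cultures, with 67.5%, 76.9% and 76.7% in wildtype and 56.1%, 28.2% and 70.7% in AID-null clones. Id3 RNA was listed at 873 and 738 FPKM in fibroblasts and 484 and 135 FPKM at 3 weeks. Ttyh3, a membrane protein gene, went from 215 and 242 FPKM to 40.2 and 48.2 FPKM. Ehbp1l1 went from 120 and 112 FPKM to 52.5 and 47.9 FPKM, with its tile going from 1.61% and 1.00% to 40.6% and 41.3%. Mgat5, a glycosyltransferase gene, had 28.5 and 22.4 FPKM before and 29.6 and 20.4 FPKM after, beside a tile 0.563 kb before its start at 39.3% and 36.7% in the cultures. Suds3, a subunit of the Sin3 corepressor, had differences of 0.61 and -0.05. Bsx, Plut and C130026L21Rik were listed at 0 in all 4 libraries.

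The share of lower genes was smaller at larger distances. Within 10 kb of a tile's edge lay 125 placed genes, of which 34 of 83 measured (41.0%) were at least 2-fold lower under the wildtype label and 29 of 80 (36.2%) under the AID-null label. The medians were -0.77 and -0.62, against 0.12 and -0.08 over all placed genes. All genes at 1 FPKM or more, placed or not, had medians of 0.16 and -0.05. Within 50 kb lay 645 genes, with 26.1% and 23.9% lower and medians of -0.22 and -0.33. Genes with no gained tile within 50 kb had 14.2% and 14.9% lower and medians of 0.14 and -0.07. Genes at least 2-fold higher numbered 17 of 83 and 12 of 80 within 10 kb. Where 2 or more gained tiles lay within 50 kb, 24 of 65 genes were lower and 8 of 65 (12.3%) higher under the wildtype label, against 22.9% higher with none within 50 kb. The shares are descriptions without a test, and the 2 labels share no library.

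**Figure D5:**
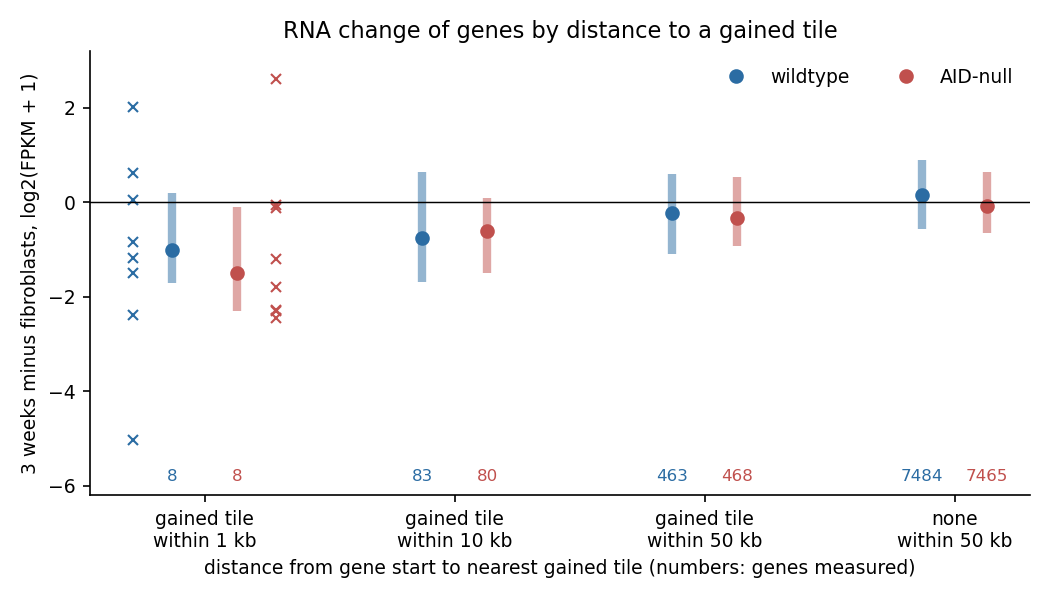
Difference in log2(FPKM + 1) between 3 weeks and fibroblasts for placed genes by distance from their start to the nearest gained tile; dots are medians, bars quartiles, crosses the 8 genes within 1 kb, and numbers the genes measured. Medians run from -1.01 and -1.51 within 1 kb to 0.14 and -0.07 where no gained tile lies within 50 kb.

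Among the genes within 10 kb that were lower under both labels, Serpinh1, the collagen chaperone, was listed at 6147 and 7099 FPKM in wildtype and AID-null fibroblasts and 756 and 900 FPKM at 3 weeks. Its tile chr7:106505001-106506000, 3.25 kb upstream, had 4.71% and 12.0% in fibroblasts and 46.4% and 33.8% in the cultures. In clones it had 54.4%, 52.7% and 56.0% under the wildtype and 77.6%, 57.3% and 84.3% under the AID-null label, without overlap. Timp2, a metalloproteinase inhibitor, went from 5363 and 4427 FPKM to 870 and 1157 FPKM. Its tile was at 8.04% and 14.8% in fibroblasts, 36.4% and 38.6% in the cultures, and 65.4%, 71.9% and 52.1% in wildtype clones. The AID-null clones of that tile were split, with 18.3%, 4.67% and 64.7%. Dbn1, an actin-binding protein, had differences of -2.03 and -1.84, Podxl2 of -3.73 and -2.19, and the zinc finger gene Zfp651 of -2.50 and -1.98.

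Some neighbours of gained tiles were higher at 3 weeks, at shares near those of all placed genes. Hmga1, a chromatin protein abundant in pluripotent cells, went from 36.4 and 50.1 FPKM to 834 and 539 FPKM. The tile 8.52 kb upstream of it went from 0.358% and 3.11% to 29.5% and 39.4%, with 65.9%, 55.0% and 67.3% in wildtype and 45.9%, 46.9% and 63.6% in AID-null clones. Adad2, an RNA-editing-related gene, was listed at 0 in both fibroblast libraries and at 11.1 and 7.1 FPKM at 3 weeks, with a gained tile 1.61 kb upstream. Gcat, an enzyme of threonine breakdown, had differences of 2.29 and 2.24, and the adenosine receptor gene Adora2b of 1.18 and 2.78. A gained tile was thus found next to genes of either direction.

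The gene lists, which were drawn up with earlier results of these data known, were placed only in part. Of 11 placed extracellular matrix genes, 5 had a gained tile within 50 kb (45.5%), against 6.52% of all placed genes. All 5 were at least 2-fold lower under both labels, but so were 4 of the 6 without one. Col5a1, a fibrillar collagen chain, went from 2620 and 2822 FPKM to 99.5 and 407 FPKM, with a tile 23.9 kb upstream at 9.44% and 3.84% in fibroblasts and 35.4% in both cultures. That tile had 71.2%, 76.0% and 72.0% in wildtype and 76.8%, 75.8% and 95.4% in AID-null clones. Thbs4, a thrombospondin, went from 5882 FPKM to 25.03 FPKM under the wildtype label but from 8201 to 3395 FPKM under the AID-null label, while its tile stood at 53.1% and 55.3% in the cultures. Col6a2 showed the same contrast, with differences of -5.50 and -1.93 beside culture levels of 40.7% and 37.4%. Fbln5, an elastic fibre protein, had differences of -3.93 and -2.88.

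Of 23 placed mesenchymal transcription factor genes, 4 had a gained tile within 50 kb (17.4%), against 6.52% of all placed genes. Ebf3 and Msx1 were lower, with differences of -1.54 and -1.30 for Ebf3 and -1.65 and -2.85 for Msx1, Gata2 had 0.46 and -0.55, and Hand2 was listed at 0 throughout. Of the 17 measured genes of that list without a gained tile nearby, 11 were lower under both labels. The tile near Ebf3 had 19 listed positions, many for a gained tile, and went from 21.5% and 26.9% to 59.2% and 57.6%. Among 31 placed TGF-beta, Wnt and hedgehog genes there were 6 (19.4%). Of these, 2 of 5 measured were lower and 1 higher, against 10 and 3 of 21 without a gained tile nearby. The signal transducer Smad3 went from 132 and 142 FPKM to 34.1 and 42.3 FPKM and the inhibitory Smad6 from 109 and 86.4 FPKM to 21.7 and 18.7 FPKM. The Wnt receptor gene Fzd10 was higher, from 1.54 and 0.68 FPKM to 20.6 and 12.3 FPKM. The 6 Hox genes among 13 placed all shared the tile chr2:74560001-74561000 in the Hoxd cluster, 9.95 kb downstream of the start of Hoxd3. It had 9.62% and 14.8% in fibroblasts, 56.0% and 55.3% in the cultures, 62.9%, 88.2% and 65.6% in wildtype and 63.1%, 67.4% and 81.4% in AID-null clones. Of these 6 genes Hoxd9 alone reached 1 FPKM under both labels. No gained tile lay within 50 kb of the 9 placed pluripotency genes, the 12 of the methylation machinery, the 16 imprinted genes or the 7 epithelial genes. At the share of all placed genes, 6.52%, lists this small would hold few such genes or none, so the absence does not set them apart.

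Other cell types were measured beside these shares. Over 6 macrophage markers the summed level was 252 FPKM in wildtype and 814 FPKM in AID-null fibroblasts, and 115 and 294 FPKM at 3 weeks. Of these, Cd68 gave 85.3 and 229 FPKM in fibroblasts and 112 and 193 FPKM at 3 weeks, and the others were lower under both labels. Over 4 keratinocyte markers the summed level was 3.86 and 0 FPKM in fibroblasts and 55.0 and 2.29 FPKM at 3 weeks. Over 4 muscle markers it was 2.5 and 17.5 FPKM before and 191 and 96.8 FPKM after. Of the muscle sums at 3 weeks, Mylpf gave 188 and 95.4 FPKM. Myh3 had 2.85 and 1.44 FPKM there, Myog 0.7 and 0 FPKM, and Actc1 0 FPKM in both. Over 3 endothelial markers the summed level was 7.83 and 7.18 FPKM in fibroblasts and 69.6 and 95.4 FPKM at 3 weeks, of which Pecam1 gave 67.8 and 91.1 FPKM. Their part in the levels of the gained tiles was not tested.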

How the data were processed

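Coverage counts per cytosine and the percent read as methylated or converted were deposited by the authors, made with Bismark and methylKit on mm9 per the submitters' processing notes, with every listed position at 10 or more reads. RNA values are the authors' FPKM per gene, from TopHat and Cufflinks per the same notes. Versions are not given in the sources used here.

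Tile levels were 100 times the summed methylated reads over the summed reads. Clones were compared with a quasi-binomial model per tile in R 4.3.3, with dispersions moderated by limma 3.58.1 and Benjamini-Hochberg adjustment, tested on simulated data first. RNA differences used log2(FPKM + 1) for genes at 1 FPKM or more in either library. Everything else used Python 3.11.15. RefSeq promoters (250 bases before to 50 after the start) were placed by the spacing of at least 6 listed CpGs. Of 9062 windows placed in a first round, 99.8% followed the RefSeq order, while reversed windows, used as a check, were placed 1138 times. In a second round, limited by neighbours, 2231 windows and 32 reversed ones were placed.

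A check of the genotype labels by RNA is not reported here. The members and gene lists were chosen with earlier results of these data known. Tiles were named as the longest runs, the extremes of clone level and of clone difference, and those next to a bound. Genes were named within 1 kb of a gained tile, and, widened after values were seen to 10 kb and 50 kb, as the 8 lowest and 8 highest changes with at least 10 FPKM, or as list members. Tried alternatives were coverage and position minimums, a coverage cap, tile placement, gain and fibroblast bounds, clones left out, a clone block, limma, pseudocount, filter and scaling.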

Additional observations from a re-analysis of the deposited data

How the results depend on the processing

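Of 83 alternative values, 64 stayed within the spread between clones, within 1.5 times the count or, for RNA, within a small fixed log2 difference. Another 19 moved further and 0 reversed. A reversal could be recorded for the RNA medians only, since counts, levels and shares have no sign. The wildtype RNA median of 0.00 within 1 kb without the filter on low values was counted as moved. The number of gained tiles, 1422, was 580 with at least 5 positions, 2193 with a gain of 20 points and 762 with 30 points. With either fibroblast library alone, an alternative chosen after seeing the data, it was 1649 (wildtype) and 1425 (AID-null), of which 1269 and 1148 were among the 1422. The share of tiles with every wildtype clone 25 points above fibroblasts, 94.9%, was 96.4% at 20 reads or more, 97.9% at 5 positions or more, 91.6% with the mean of the positions' levels, and 95.6% to 97.0% with a clone left out. The AID-null share, 94.2%, was 94.2% to 96.8% with a clone left out. The share for every clone, 90.4%, was 92.8% at 5 positions, 86.4% with the mean of the positions' levels and 90.4% to 92.5% with a clone left out. Leaving a clone out can only keep or raise these shares, since each asks every clone in it to pass. Gained tiles called between the labels numbered from 0 to 16 with a clone left out, 16 only without AID-null clone 3. The 2 clones left are then assumed to vary like those of the other label.

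Without the filter on low FPKM, the median RNA difference within 1 kb was 0.00 (wildtype) and -0.13 (AID-null), and within 10 kb -0.47 and -0.38. Centred on all genes, the wildtype medians were -1.17 and -0.93. The alternatives for 10 kb and the centring were chosen after seeing the data. The cause was not tested, except that genes listed at 0 enter when the filter is dropped.

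With the clone number as a replicate block, 0 gained tiles were called by the quasi-binomial model and 161 stood at an unadjusted p under 0.05. Same-numbered clones shared only a number: over gained tiles their deviations correlated at 0.03, -0.04 and -0.01. Depth limited single tiles, with half-widths up to 16.8 points, and 3 clones against 3 cannot go below an exact two-sided p of 0.1 for a single tile.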

Other observations

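Low tiles that gained 25 points in only 1 of the cultures had clone medians above both culture medians. The 581 tiles that gained only in the wildtype culture had medians of 43.7% in that culture and 32.9% in the other, and of 57.8% for wildtype and 59.6% for AID-null clone means. The 454 tiles that gained only in the AID-null culture stood at a median of 39.3% in the wildtype culture against 50.3% in their own, and of 60.4% for wildtype and 67.0% for AID-null clone means. These tiles were chosen on the culture levels, so the difference between the cultures is a description.

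Gained tiles were found on all 19 autosomes, at shares of tested tiles from 0.849% on chromosome 17 to 1.68% on chromosome 8. On chromosome 8 these were 111 tiles of 6615.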
